A study of Homo sapiens with 19 samples.

Results

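A set of 5 genes for secreted hormones and neuropeptides, PRL, PNOC, BDNF, GHRL and EDN1, were followed in THP-1 cells given vitamin C (vit C). The genes were taken by their names on the array and are read by 6 probes, out of 50238 probes for 31033 gene names. They were chosen by their measured levels in the 8 groups of these same arrays, as hormone genes that differed with vit C. Their levels, their differences between vit C-treated and untreated (UT) cells and their time courses are therefore given as descriptions with standard errors and without tests. Tests are given for their receptors, the enzymes that process hormone precursors, the prolactin signalling genes, other hormone genes and markers of other cell types. For the 5 genes themselves, the number that met the study's thresholds is given as a description.

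THP-1 is a human monocytic leukaemia cell line. All cells, UT and vit C-treated alike, had first been turned into macrophage-like cells with 30 nM phorbol myristate acetate (PMA), and had then been rested. The treated flasks received 0.1 mM vit C and the UT flasks received none, and RNA was taken after 8, 24, 48 and 96 h. Arrays of separately grown flasks of this 1 cell line numbered 2, 3, 2 and 3 for UT cells and 3, 2, 2 and 2 for vit C-treated cells at these times, 19 in all. Of 11 macrophage and monocyte markers on the array, 9 were well above background on all 19 arrays. MRC1, the mannose receptor of mature macrophages, was well above background on none. CD3D of T cells, EPCAM and CDH1 of epithelium, CDH5 of endothelium and POU1F1 of pituitary cells were also above background on none.

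Prolactin, the product of PRL, is the pituitary hormone of lactation and is also made by some immune cells. It acts through PRLR, a cytokine-type receptor that signals by JAK2 and STAT5. PNOC encodes the precursor of nociceptin, a peptide related to the opioids whose receptor is OPRL1. BDNF encodes brain-derived neurotrophic factor, which keeps neurons alive and binds NTRK2, also called TrkB. GHRL encodes ghrelin, the stomach hormone that raises appetite and growth hormone release through GHSR. EDN1 encodes endothelin-1, a strong constrictor of blood vessels that acts on EDNRA and EDNRB. Peptides of this kind are made as longer precursors and are cut and modified on their way out of the cell.

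The upstream sequences of PRL, the gene of the set that was higher with vit C, and of EDN1, one of those that were lower, are shown because both hold a TATA box at the same distance from the start. They are 250 bases before the start that RefSeq gives in GRCh38.p14, on the minus strand for PRL (chr6:22297037-22297286) and on the plus strand for EDN1 (chr6:12290111-12290360). EDN1 has further starts in RefSeq that are not shown. Capitals mark the motifs found on either strand.
PRL: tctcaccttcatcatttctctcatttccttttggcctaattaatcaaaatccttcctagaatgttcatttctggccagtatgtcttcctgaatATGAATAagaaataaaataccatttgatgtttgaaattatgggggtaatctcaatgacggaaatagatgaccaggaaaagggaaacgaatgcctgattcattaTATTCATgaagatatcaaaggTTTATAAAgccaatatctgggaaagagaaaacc
EDN1: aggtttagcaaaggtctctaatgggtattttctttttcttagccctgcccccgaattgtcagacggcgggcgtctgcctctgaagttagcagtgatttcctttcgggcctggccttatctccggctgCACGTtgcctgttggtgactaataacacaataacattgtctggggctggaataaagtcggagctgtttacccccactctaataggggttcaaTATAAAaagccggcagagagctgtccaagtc
The letters TATAAA, the core of the TATA box, begin 31 bases before the start in both genes, and in PRL they overlap a match on the other strand. They occur in 3763 of 35116 upstream windows of this length. PRL also holds ATGNATA, the core bound by the pituitary factor POU1F1, on both strands at different places, as 6.41% of windows do on either strand. EDN1 holds ACGTG, the core of the hypoxia response element, on the other strand from -123 to -119, as do 18.5% of windows on either strand. The exact letters TGACTCA, the element through which PMA acts on many genes by AP-1, are in neither window. None of the 4 motifs is in the window of GHRL. TGACTCA occurs in 4.20% of windows. Forms that differ from it by a base, such as TGACTAA in the EDN1 window, were not searched for. As background, PRL outside the pituitary is usually transcribed from another start further upstream, which is not part of the window printed here. The probe that measured BDNF lies in the coding sequence of the precursor and is shown because the second BDNF probe was at background on all arrays.
BDNF probe: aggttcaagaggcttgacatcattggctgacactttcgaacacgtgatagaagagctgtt

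Levels are log2 of the scanner's processed signal minus the 75th percentile of that array, so that 0 is a signal as bright as that percentile and each unit is a doubling. The percentile itself ranged from 290.2 to 903.5 signal units and was highest on both vit C arrays at 96 h. The scanner software marks a probe as well above background or not, and 57.5% to 72.8% of probes per array were. At 48 h PRL was higher and PNOC, BDNF, GHRL and EDN1 were lower in vit C-treated than in UT cells, on every array. The same held at 96 h for all but BDNF, which was then above background on 1 array only. The slides, which carry 8 arrays each, divide the groups almost completely. All UT arrays at 8, 24 and 48 h were on 1 slide and all but 1 of the vit C arrays of these times on another, and at 96 h slide and treatment cannot be told apart. No slide held UT and vit C arrays of the same time, so no difference could be taken within a slide. With the slide fitted as a block, which rests on the UT arrays at 96 h being split over both slides, the differences changed by the amounts given with each gene.

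**Figure D1:**
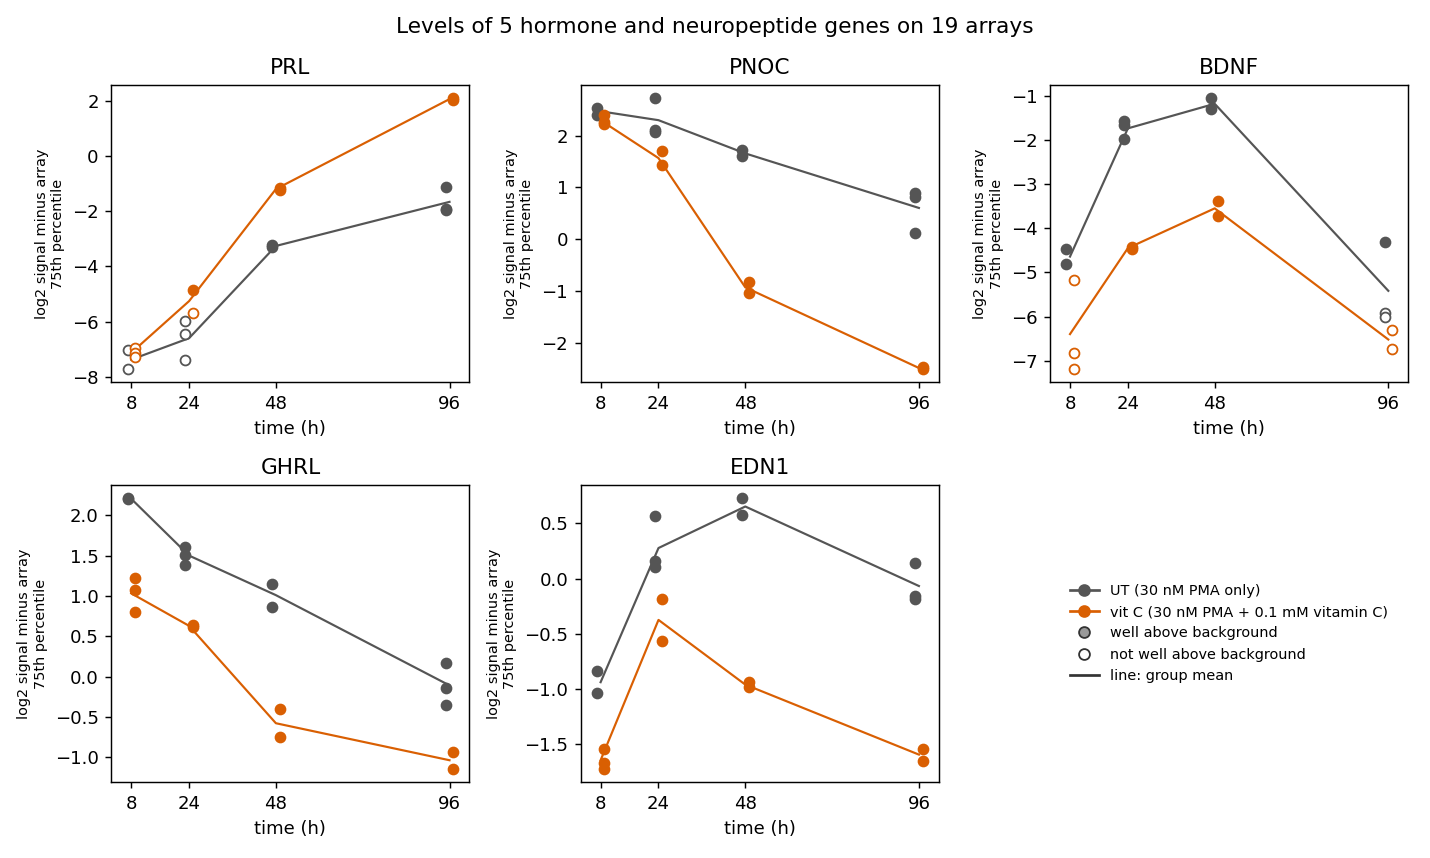
Level of PRL, PNOC, BDNF, GHRL and EDN1 on each of the 19 arrays (y axis, log2 processed signal minus the 75th percentile of the array, own scale in each panel) against hours after vit C addition (x axis). Points are single arrays, filled where the probe was well above background and open where it was not, lines join group means, and the vit C arrays of PRL end at 2.09 and 2.04 while those of PNOC end at -2.51 and -2.47.

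PRL went from undetected at 8 h to well above background at 48 and 96 h in both kinds of cells, and was higher with vit C at these later times. At 8 h no array was well above background, with -7.72 and -7.04 on the UT arrays and -6.97, -7.14 and -7.30 on the vit C arrays. At 24 h the UT arrays read -5.97, -7.40 and -6.44 and were not above background, and of the vit C arrays, -5.67 and -4.85, the second was. The gene was thus not detectable in UT cells until after 24 h. At 48 h UT arrays read -3.30 and -3.22 and vit C arrays -1.15 and -1.24. At 96 h UT arrays read -1.91, -1.94 and -1.14 and vit C arrays 2.09 and 2.04. The groups did not overlap at either time. The difference was 2.06 ± 0.42 (log2, SE, n = 2 and 2) at 48 h, a 4.17-fold higher level, and 3.73 ± 0.38 (n = 2 and 3) at 96 h, a 13.2-fold higher level. In UT cells alone the level at 96 h was at least 11.8-fold that at 8 h, and in vit C-treated cells at least 129-fold. These are lower bounds, in which the dim group was set at the faintest signal called above background on its arrays. In order of level, UT and vit C at 8 h and UT at 24 h overlapped at the bottom. Vit C at 24 h, UT at 48 h and then UT at 96 h with vit C at 48 h followed, the last pair overlapping, and vit C at 96 h stood alone at the top. With the slide as a block the difference at 48 h was 1.74. With normexp background correction it was 1.15 at 48 h and 3.33 at 96 h.

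The genes most like PRL over the 19 arrays, out of 14327 with a varying signal, were DCN (Pearson r 0.97), FGFBP2 (0.97) and ALOX5 (0.97). The arrays share the time course and the slides, so these values describe a shared shape only. DCN, which encodes the matrix proteoglycan decorin, had group means of -5.58, -4.76, -1.29 and -0.29 in UT cells and -5.27, -4.12, 1.05 and 2.19 in vit C-treated cells at the 4 times. ALOX5 encodes the enzyme that starts leukotriene synthesis. DCN is also 1 of 6 fibroblast markers, whose summed level was higher with vit C at 24, 48 and 96 h without overlap. From 48 to 96 h, when PRL rose in both kinds of cells, the sum was lower in UT cells and overlapped in vit C-treated cells. The higher sum at 48 and 96 h rested on DCN, which differed by 2.34 and 2.48, while PDGFRA differed by -0.19 and -0.10. Without DCN, a sum chosen after seeing the data, the other 5 averaged 2.08 in UT and 1.96 in vit C arrays at 48 h and 0.35 and 0.45 at 96 h. At 24 h the sum without DCN was still higher with vit C, averaging 0.51 in UT and 1.28 in vit C arrays without overlap. The log2 summed level of all 6 ranged from -0.38 to -0.36 in UT and -0.66 to -0.15 in vit C arrays at 8 h, and from 0.33 to 0.66 and 1.18 to 1.46 at 24 h. It ranged from 2.20 to 2.22 in UT and 2.49 to 2.66 in vit C arrays at 48 h, and from 0.60 to 1.76 and 2.50 to 2.63 at 96 h. Of the 6, PDGFRA was well above background on all 19 arrays, DCN on 14, COL1A1 on 5, LUM on 4 and COL3A1 on 2. COL1A2, which encodes a chain of type I collagen, was above background on none. POU1F1, the pituitary factor that drives PRL in lactotrophs, was also above background on no array. At 48 h the summed levels of the other 5 marker lists did not overlap between the treatments either, and at 8, 24 and 96 h they did. At 48 h the epithelial sum was 0.89 to 1.00 in UT and 0.21 to 0.32 in vit C arrays, the neuronal and neuroendocrine sum 4.14 to 4.17 and 3.84 to 4.06, the macrophage and monocyte sum 8.82 to 8.86 and 8.91 to 9.04, and the T and B cell sum -1.17 to -1.06 and -1.01 to -0.86. What part such cells might have in the levels of the 5 genes was not tested. In these bulk samples, more cells that express a gene and more RNA per cell cannot be told apart.

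**Figure D2:**
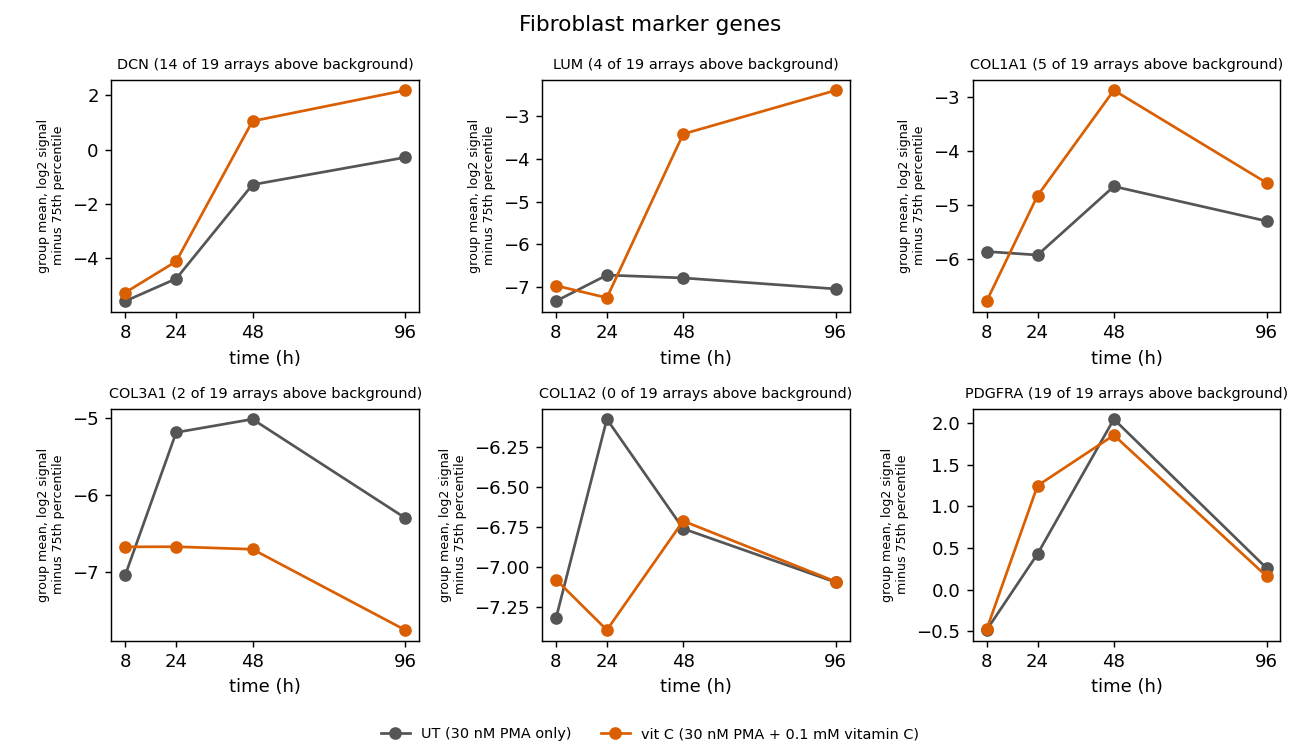
Group means of the 6 fibroblast markers (y axis, log2 processed signal minus the 75th percentile, own scale in each panel) against hours after vit C addition (x axis), in UT and vit C-treated cells of 2 or 3 arrays per group. DCN and LUM were called higher with vit C at 48 and 96 h, COL1A1 had higher means there but did not pass the test (q = 0.0939 and 0.379 in limma), COL3A1 was below background in both groups at 48 h with probes that disagreed and was called lower at 96 h by a dimmer probe at -1.08, PDGFRA differed by -0.19 and -0.10, and COL1A2 was above background on 0 of 19 arrays.

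PNOC was lower at 48 and 96 h than at 8 h in both kinds of cells, and lower still with vit C at these times. It was well above background on all 19 arrays. At 8 h the UT arrays read 2.40 and 2.53 and the vit C arrays 2.22, 2.39 and 2.26. At 24 h the UT arrays read 2.72, 2.11 and 2.07 and the vit C arrays 1.42 and 1.71. The groups lay close together at these times, with differences of -0.17 ± 0.25 and -0.73 ± 0.25. At 48 h the UT arrays read 1.71 and 1.60 and the vit C arrays -1.04 and -0.82. At 96 h the UT arrays read 0.11, 0.80 and 0.89 and the vit C arrays -2.51 and -2.47. Every vit C array was now far below every UT array. The difference was -2.59 ± 0.27 (6.01-fold lower) at 48 h and -3.09 ± 0.25 (8.52-fold lower) at 96 h, the largest decrease of the set. The level at 96 h was 3.65-fold below that at 8 h in UT cells and 27.5-fold below it in vit C-treated cells. In order of level, the groups at 8 h and UT at 24 h lay at the top with overlapping or nearly touching ranges, UT at 48 h overlapped vit C at 24 h, and UT at 96 h, vit C at 48 h and vit C at 96 h each stood apart. The slide block gave -0.91, -1.47 and -3.44 at 8, 24 and 48 h, and with normexp background correction it was -2.63 at 96 h. The genes most like PNOC were USP18 (r 0.95), which removes the interferon-induced ubiquitin-like protein ISG15, SSBP4 (0.95) and C1orf122 (0.95).

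BDNF was highest at 24 and 48 h in both kinds of cells, at a lower level with vit C. At 8 h the UT arrays read -4.47 and -4.81, and the vit C arrays, -5.18, -6.82 and -7.19, were not above background. At 24 h the UT arrays read -1.97, -1.58 and -1.66 and the vit C arrays -4.42 and -4.48. At 48 h the UT arrays read -1.30 and -1.06 and the vit C arrays -3.38 and -3.72. All arrays of these later groups were above background and the treatments did not overlap. At 96 h the UT arrays read -5.92, -6.02 and -4.31, of which the last was above background, and the vit C arrays, -6.31 and -6.73, were not. The difference was -2.71 ± 0.53 (6.56-fold lower) at 24 h and -2.37 ± 0.58 (5.17-fold lower) at 48 h. At 8 h the level in UT cells was at least 1.23-fold that in vit C-treated cells. At 96 h no size is given, since 1 of the 5 arrays was above background. The highest group was UT at 48 h, followed by UT at 24 h, vit C at 48 h, and then vit C at 24 h with UT at 8 h, which overlapped. The remaining groups held arrays at background and have no order. BDNF is the gene whose size depended most on the processing. The difference at 24 h was -3.47 with the slide as a block and -1.38 with normexp background correction. It was -1.64 by the dimmer probe, which was not above background on any array, and -2.18 as the mean of both probes. The antisense gene of BDNF, BDNFOS, has 2 probes that were above background on 0 and 2 arrays. The genes most like BDNF were MMP1 (r 0.95), the interstitial collagenase, LOC57228 (0.93) and LEPREL1 (0.91), a collagen prolyl 3-hydroxylase.

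GHRL was lower at each later time and lower with vit C on every array at all 4 times, and it was above background on all 19 arrays. At 8 h the UT arrays read 2.21 and 2.20 and the vit C arrays 1.07, 0.81 and 1.22. At 24 h the UT arrays read 1.51, 1.39 and 1.61 and the vit C arrays 0.62 and 0.64. Vit C-treated cells at 8 h were already at the level that UT cells had at 48 h, since these groups overlapped. At 48 h the UT arrays read 0.87 and 1.15 and the vit C arrays -0.75 and -0.40. At 96 h the UT arrays read -0.35, -0.14 and 0.17 and the vit C arrays -0.93 and -1.14. The differences were -1.17 ± 0.20 (2.25-fold lower), -0.87 ± 0.20 (1.83-fold), -1.59 ± 0.22 (3.00-fold) and -0.93 ± 0.20 (1.90-fold) at the 4 times. No other neighbours in the order of the 8 groups overlapped. With the slide as a block the differences were -1.54, -1.24 and -2.13 at 8, 24 and 48 h. The genes most like GHRL were C1orf122 (r 0.97), ETHE1 (0.96), a mitochondrial enzyme of sulfide oxidation, and CHD7 (0.96), a chromatin remodeller.

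EDN1 was highest at 48 h in UT cells and was lower with vit C on every array at all 4 times. It was above background on all 19 arrays. At 8 h the UT arrays read -0.84 and -1.04 and the vit C arrays -1.72, -1.54 and -1.66. At 24 h the UT arrays read 0.56, 0.10 and 0.16 and the vit C arrays -0.57 and -0.18. The level at 24 h exceeded that at 8 h by 1.21 ± 0.20 in UT cells and 1.27 ± 0.20 in vit C-treated cells. At 48 h the UT arrays read 0.58 and 0.73 and the vit C arrays -0.94 and -0.98. At 96 h the UT arrays read -0.16, -0.18 and 0.14 and the vit C arrays -1.54 and -1.65. After 24 h the mean in vit C-treated cells was lower at each later time, while that in UT cells was higher at 48 h and lower at 96 h. The differences were -0.70 ± 0.20 and -0.65 ± 0.20 at 8 and 24 h, and -1.61 ± 0.22 (3.05-fold lower) and -1.52 ± 0.20 (2.87-fold lower) at 48 and 96 h. UT at 48 h was the highest group. UT at 24 h and UT at 96 h overlapped, as did UT at 96 h and vit C at 24 h, UT at 8 h and vit C at 48 h, and vit C at 96 h and vit C at 8 h. With the slide as a block the difference was -1.73 at 48 h and -0.85 at 8 h. The summed level of 6 endothelial markers was higher with vit C at 48 h, at 0.29 to 0.51 in UT and 1.01 to 1.12 in vit C arrays, and overlapped at the other times. CLDN5 was the one of these called at 48 h, as higher by 1.35 ± 0.23 (limma, q = 0.00701). Of the 6, 3 were well above background on all 19 arrays. VWF, among these 3, differed by -0.35 ± 0.22 at 48 h (limma, q = 0.504), and CDH5 was above background on no array. Whether such cells have a part in the EDN1 level was not tested. The genes most like EDN1 were DKFZP564O0823 (r 0.96), CH25H (0.95), which makes 25-hydroxycholesterol, and AK125162 (0.93).

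**Figure D3:**
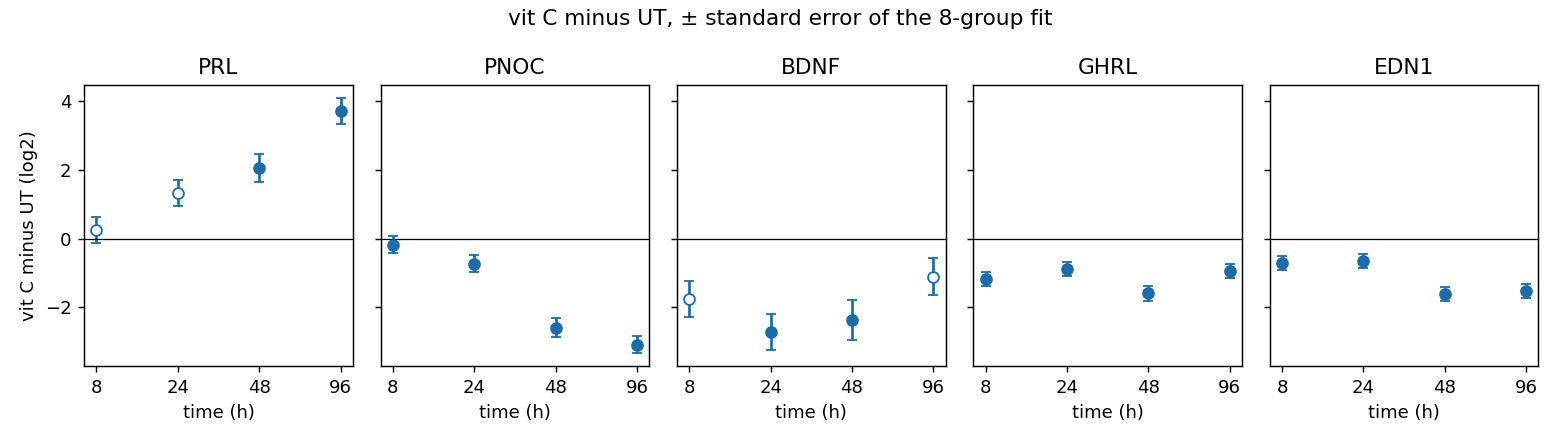
Difference between vit C-treated and UT cells (y axis, log2, ± standard error of the fit of 8 group means) at 8, 24, 48 and 96 h (x axis) for the 5 genes. Filled points have arrays above background in both groups and open points do not, and PRL goes up to 3.73 at 96 h while PNOC goes down to -3.09.

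A gene met the call rule where a probe differed by at least 1 on the log2 scale with a Benjamini-Hochberg q of at most 0.05 in limma. The thresholds are those of the study's methods but the test is not, and by the methods' t-test none of the 5 genes met them at any of the 4 times. Since the genes were chosen for their changes, the counts are stated beside the share of all genes and nothing is read from them. At 8 h GHRL met it as lower, 1 of the 5, beside 0.227% of 25136 genes tested that were called lower and 0.322% called higher. BDNF was left out of that test because its 2 probes disagreed in sign. At 24 h BDNF met it as lower, 1 of the 5, beside 0.820% of genes called lower and 0.835% called higher. At 48 h all 5 met it, PRL as higher, beside 2.08% of genes, and the other 4 as lower, beside 1.56%. With the slide as a block, 2 of the 5 met it at 48 h and none at 8 or 24 h. At 96 h PRL met it as higher, beside 2.72% of 26337 genes, and PNOC and EDN1 as lower, beside 10.1%. GHRL at 8 h, with -1.17, lay just inside the rule and GHRL at 96 h, with -0.93, just outside. In UT cells between 8 and 96 h, PRL met it as higher, beside 8.90% of genes, and PNOC and GHRL as lower, beside 7.18%. At 96 h, 21.2% of the called genes were higher with vit C, against 56.0% with quantile normalization, and the number called was 1019 in place of 3375 without dim probes. Over all probes the median difference was -0.18 at 24 h and -0.15 at 96 h, against -0.03 at both with quantile normalization, and the differences above are not corrected for it.

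Of the 8 receptors of the 5 hormones, 6, 7 and 5 could be tested at 8, 24 and 48 h, the others having opposing probes. None of these passed, beside 0.322%, 0.835% and 2.08% of all genes called higher and 0.227%, 0.820% and 1.56% called lower, and at 96 h 1 of 6 tested passed, NGFR, as lower, beside 10.1% of all genes. NGFR, the low-affinity neurotrophin receptor, was above background on 1 array only, of UT cells at 96 h, and no size is given for it. With p left unadjusted at 0.05, limma found 1 receptor at 8 h, 0 at 24 h and 1 at 48 h past the same fold. Over all genes it found 1770, 2228 and 2455. The methods' t-test after adjustment found 0 receptors at each of the 4 times, beside 12, 0, 3 and 0 of all genes. PRLR was near background throughout, with its brightest probe above background on 5 arrays, and its 3 probes disagreed in sign at 24, 48 and 96 h. NTRK2 had 4 probes above background on no array and 1 on 10. OPRL1 differed by -0.44, -0.62, -0.14 and -0.69 at the 4 times, with q between 0.388 and 1.00. GHSR differed by -0.54, 0.03, 0.43 and -0.11, with q between 0.674 and 0.976. Both were above background on all 19 arrays. EDNRA differed by -0.85 ± 0.25 at 96 h (limma, q = 0.0408), which is under the fold required, and EDNRB by -0.16 ± 0.24 (q = 0.702). The median difference of the receptors measured and tested was -0.16 at 96 h, against -0.06 over all measured genes.

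With time, receptors did change in UT cells. Between 8 and 96 h, 1 of 6 tested rose and 2 fell, beside 8.90% of all genes that rose and 7.18% that fell. SORT1, the sorting receptor of the BDNF precursor, rose by 2.12 ± 0.28 (limma, q = 8.6e-05). EDNRB fell by 1.06 ± 0.24 (q = 0.00499). EDNRA passed as lower by its dimmer probe, at -1.98, while its brighter probe differed by -0.43 ± 0.25 (q = 0.272).

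Among 16 genes that process hormone precursors, none passed as higher with vit C at any of the 4 times. As lower, 1 passed at 24 h, 1 at 48 h and 5 of 14 tested at 96 h, beside 0.820%, 1.56% and 10.1% of all genes. PCSK1N, 1 of the 16, had means higher by 2.56, 1.67, 2.97 and 1.66 at the 4 times. It did not pass (limma, q between 0.133 and 0.331), and its arrays overlapped at 96 h only. At 8 h 0 of 15 tested passed in limma, beside 0.322% of all genes called higher and 0.227% called lower. With p left unadjusted 1 passed, beside 1770 of all genes, and the methods' t-test passed 0, beside 12 of all genes. CPE, the carboxypeptidase that trims the cut ends, was lower at 48 h by -1.66 ± 0.27 (limma, q = 0.00416) and at 96 h by -1.51 ± 0.24 (q = 0.00255), with no overlap of arrays. With the slide or the replicate number as a block it did not pass at 48 h. PCSK6, a furin-like convertase, was lower by -1.60 ± 0.22 at 96 h (q = 0.000849). At 24 h it passed by a dimmer probe at -1.96, while its brightest probe differed by -0.77 ± 0.22 (q = 0.0974). PCSK1, the convertase that cuts many hormone precursors in the regulated pathway, was lower by -1.41 ± 0.22 at 96 h (q = 0.00218), after 0.61 and 0.71 at 8 and 24 h. SCG5, a chaperone of the convertase PCSK2, was lower by -1.04 ± 0.23 (q = 0.0168), whereas PCSK2 itself, the fifth gene called, was below background in both groups. ECE1, which makes active endothelin-1, differed by -0.19 ± 0.46 at 96 h (q = 0.821) and was above background on 10 arrays. MBOAT4, which attaches the fatty acid to ghrelin, was above background on none. PAM, which amidates peptide ends with ascorbate as its cofactor, differed by -0.53, -0.54, -0.75 and 0.37 at the 4 times, with q between 0.271 and 0.514.

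In UT cells between 8 and 96 h, 3 of 14 tested processing genes rose and 3 fell, beside 8.90% and 7.18% of all genes. SCG5 rose by 3.53 ± 0.23 (limma, q = 1.2e-07) and PCSK6 fell by 1.51 ± 0.22 (q = 0.000196). PAM passed as lower by a dimmer probe at -1.92, while its brightest probe differed by -0.25 ± 0.30 (q = 0.600). The probes of PAM thus disagreed in size.

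Of 10 genes of prolactin receptor signalling, SOCS3 was lower at 8 h by -1.49 ± 0.26 (limma, q = 0.0229), 1 of 6 tested, beside 0.227% of all genes. It differed by -0.84, -0.19 and -0.08 afterwards. It did not pass when any 1 of the 5 arrays at 8 h was left out. SOCS3 is a feedback inhibitor of cytokine receptors and is not particular to PRLR. At 24 and 48 h, 0 of 8 and 0 of 5 tested passed in limma. Of all genes, 0.835% and 2.08% were called higher and 0.820% and 1.56% lower. With p left unadjusted 2 and 0 passed, beside 2228 and 2455 of all genes. By the methods' t-test 0 passed, beside 0 and 3 of all genes. At 96 h 1 of 5 tested passed as lower, beside 10.1% of all genes. This was SOCS2, by a dimmer probe that was not above background throughout either group, and its brighter probe differed by -0.60 ± 0.43 (q = 0.393). JAK2, the kinase bound to the receptor, differed by 0.13 ± 0.25 (q = 0.782) and STAT5A by 0.90 ± 0.33 (q = 0.0854) at 96 h. In UT cells with time, SOCS1 fell by 2.35 ± 0.22 (q = 3.3e-06) and STAT5A fell by 1.40 ± 0.33 (q = 0.0075), 2 of 7 tested, beside 7.18% of all genes that fell.

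The array holds 110 of 111 other hormone and neuropeptide genes that were listed, 40 of them above background on all 19 arrays and 19 on none. With vit C, 0 passed as higher and 2 as lower at 8 h, 0 and 4 at 24 h, 3 and 5 at 48 h and 4 and 10 at 96 h, of 97 or 98 tested. Over all genes, 0.322% were called higher and 0.227% lower at 8 h, 0.835% and 0.820% at 24 h, 2.08% and 1.56% at 48 h and 2.72% and 10.1% at 96 h. The share called lower at 96 h was thus near that of all genes. With p left unadjusted at 0.05, limma found 13, 14, 18 and 22 past the same fold in either direction. Over all genes it found 1770, 2228, 2455 and 4927. The methods' t-test after adjustment found 0 at each time, beside 12, 0, 3 and 0 of all genes. Of the 14 called at 96 h, 7 were called by a probe above background throughout 1 or both of the groups, the condition for calling a gene measured here. The number called at 8 h was 0 or 1 when any 1 array was left out, and that at 96 h was 23 without the third UT array and 6 without the second vit C array. The median difference of those measured was -0.21 at 96 h, against -0.06 over all measured genes. ADM, which encodes the vessel-widening peptide adrenomedullin, differed most at 24 h, when it was lower by -2.19 ± 0.21 (limma, q = 0.00018), after -1.26 ± 0.21 at 8 h (q = 0.0192) and before -1.88 ± 0.23 at 48 h (q = 0.000776). At 96 h it differed by -0.69 ± 0.21 (q = 0.0427), under the fold required. HAMP, which encodes the iron hormone hepcidin, changed direction. It was lower at the first 3 times, by -1.13 ± 0.18 (q = 0.0192), -1.03 ± 0.18 (q = 0.0116) and -1.65 ± 0.20 (q = 0.000657), and higher by 1.64 ± 0.18 at 96 h (q = 0.000137). GDF15, a stress hormone of the TGF-beta family, was lower by -1.77 ± 0.33 at 24 h (q = 0.0158), and its difference at 96 h was -2.28 ± 0.33 (q = 0.00104). AGT, the angiotensin precursor, was lower by -1.06 ± 0.18 at 24 h (q = 0.00942).

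Higher with vit C were STC2, a stanniocalcin, by 2.24 ± 0.47 at 48 h (limma, q = 0.0185), and CRH, the hypothalamic hormone that releases ACTH, by 3.10 ± 0.45 at 96 h (q = 0.00115). CRH was above background on 3 arrays only, both vit C arrays and 1 of 3 UT arrays at 96 h, so that the size of its difference rests on UT arrays near background. SCG2, a granin, was higher by 2.26 ± 0.52 at 48 h (q = 0.0268) and by 1.85 ± 0.47 at 96 h (q = 0.0312), with no overlap of arrays, and was above background on 10 arrays. GDNF, a neurotrophic factor like BDNF, passed as higher by a dimmer probe at 2.62 at 48 h and 2.21 at 96 h. Its brightest probe differed by 0.12 ± 1.08 (q = 1.00) and 0.46 ± 0.98 (q = 0.798), so the probes disagreed. CHGB, a granin of secretory granules, was lower with vit C at 48 h by at least 1.93-fold (q = 0.00431). With the slide as a block, 0 of these genes passed at 8 and 24 h and 1 at 48 h, and no such fit can be had at 96 h. In UT cells between 8 and 96 h, 3 passed as higher and 9 as lower, beside 8.90% and 7.18% of all genes. STC2 rose by 4.61 ± 0.43 (q = 3.1e-06), NMB, the neuropeptide neuromedin B, fell by 3.29 ± 0.18 (q = 4.0e-08) and HAMP fell by 2.54 ± 0.18 (q = 2.2e-07).

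**Figure D4:**
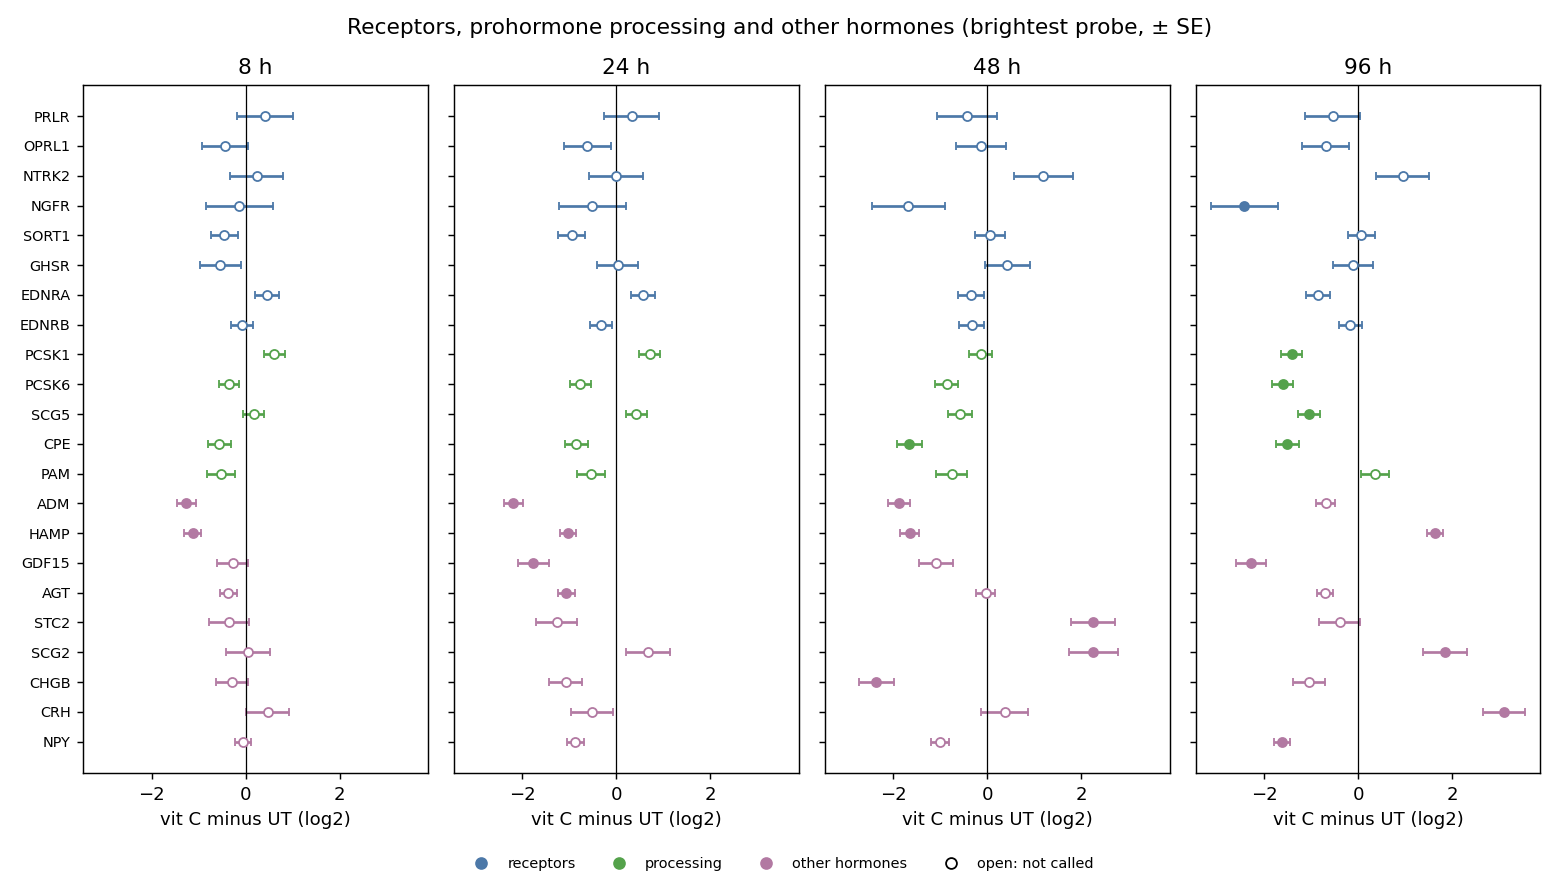
Difference between vit C-treated and UT cells (x axis, log2, ± standard error) at 8, 24, 48 and 96 h for the receptors, selected processing genes and selected other hormones (rows), each by its brightest probe. Filled points passed the test by that probe and open points did not, and the receptor row filled at 96 h is NGFR, which was above background on 1 array.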

How the data were processed

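RNA of 19 samples was labelled with Cy3 and hybridised to 1-colour Agilent arrays. The authors extracted spot intensities with Feature Extraction 10.5.1.1 per the file headers, and deposited these scanner files which had not been normalized against each other. In the log2 table of the deposited series matrix, the authors had shifted log2 signals to the 75th percentile of each array. These values were checked to equal the log2 processed signal minus 1 constant per array, for probes with 1 spot, and served as an alternative.

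Here spots of a probe were averaged on the log2 scale and the 75th percentile over probes was subtracted. No spot was saturated. A model of 8 group means was fitted with limma 3.58.1 in R 4.3.3 (lmFit and eBayes, 2-sided), and files were read with the package data.table, version 1.17.8. Genes with opposing probes were removed in each comparison, 5897 at 8 h to 4513 in UT cells over time, and a gene was called where a probe passed a log2 fold change of 1 and q of 0.05. Genes with several probes are given by the brightest. For the 5 genes, a lower bound is given where a group had no array above background, except for PRL at 8 and 24 h and BDNF at 96 h, where the text gives no size. The p-values measure the spread between flasks of 1 cell line. Python 3.11.15 with matplotlib 3.10.9 made the figures. The fit was tested on simulated data.

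The 5 genes and the gene lists were chosen with earlier results of these data known. Named are the 5 genes, their 8 receptors, PAM, up to 3 called genes of the largest change per list and comparison whose probe was above background throughout 1 of the groups, and the 3 genes most like each of the 5. HAMP and ADM at further times, SCG5 and PCSK2 at 96 h, SOCS2, JAK2, STAT5A at 96 h, ECE1, MBOAT4, BDNFOS, SCG2, INHBA, CLDN5, VWF and PCSK1N were added after their values were seen. The 4 slides were told apart by the slide number recorded with each scan. Alternatives are given in the closing section. The upstream sequences are those of RefSeq, GRCh38.p14.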

Additional observations from a re-analysis of the deposited data

Results flagged for a closer look

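Of the listed genes outside the 5, 7 that were measured at 1 or more times had a vit C effect that differed between the 4 times in a limma test of the differences among the 4 effects, adjusted by Benjamini-Hochberg over all probes. HAMP (q = 0.000144) was lower with vit C at 8, 24 and 48 h and higher at 96 h, with group means of -1.97 in UT and -0.33 in vit C-treated cells at 96 h. It was above background on all 19 arrays and the groups overlapped at no time. PCSK1 (q = 0.0126) differed by 0.61, 0.71 and -0.13 at 8, 24 and 48 h and by -1.41 at 96 h. CRH (q = 0.0418) was below background in both groups until 48 h and differed by 3.10 at 96 h. NPY (q = 0.0328), which encodes neuropeptide Y, differed by -0.06 at 8 h, by -0.87 at 24 h and by -1.61 at 96 h. INHBA (q = 0.0355), the activin A subunit, differed by 0.20, 0.40 and 0.33 and then by -0.93. CLDN5 (q = 0.0418), a tight junction gene taken as an endothelial marker, differed by 1.35 at 48 h and by -0.45, 0.11 and -0.15 at 8, 24 and 96 h. LUM (q = 0.000124), which encodes the matrix proteoglycan lumican, was below background in both groups at 8 and 24 h and was higher with vit C by at least 2.28-fold at 48 h and 6.17-fold at 96 h. For all but CLDN5 the difference was largest at 96 h, or there alone of the other sign, and the vit C arrays of that time were on a slide of their own, so that slide and treatment cannot be told apart there.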

How the results depend on the processing

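The vit C minus UT differences of the 5 genes were recomputed under 13 to 16 other settings each. In those of PNOC, GHRL and EDN1 at all 4 times, and of PRL at 48 and 96 h and BDNF at 24, 48 and 96 h, the direction was the same under every setting. For PRL at 8 and 24 h and BDNF at 8 h, where groups were at background, it was not. Normexp background correction gave 3.33 for PRL and -2.63 for PNOC at 96 h, -1.38 for BDNF at 24 h, and -1.36 for GHRL and -1.35 for EDN1 at 48 h. The slide as a fixed block gave -3.47 for BDNF at 24 h, and -2.13 for GHRL and -1.73 for EDN1 at 48 h. The mean of the probes gave -2.18 and the dimmer probe -1.64 for BDNF at 24 h. The cause of these shifts was not tested. Without 1 array, these differences ranged from 3.59 to 3.99 for PRL, -3.34 to -2.95 for PNOC, -2.83 to -2.63 for BDNF, -1.76 to -1.41 for GHRL and -1.69 to -1.54 for EDN1.

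Counts of genes past the call rule varied more. Over all genes, the methods' t-test called 12, 0, 3 and 0 at the 4 times and 285 in UT cells over time. The fit per time point called 508, 199, 0 and 3 at the 4 times, and unadjusted p 1770, 2228, 2455 and 4927. The slide block called 9, 20 and 138 at 8, 24 and 48 h. Of the 5 genes, 0 met the rule at 8 h and at 24 h with the slide as a fixed block or a replicate block, and 2 met it at 48 h with the slide block. At 24 h the number was 0 with array weights or signals floored at 20, and 2 with quantile normalization or unadjusted p. The fit per time point, which has few arrays, gave 0 at 8, 48 and 96 h, and the methods' t-test gave 0 at all 4 times. Without 1 array, 0 to 1 met the rule at 8 and at 24 h and 3 to 4 at 48 and at 96 h. BDNF at 24 h was lost without UT replicate 2 or 3 or either vit C replicate, and GHRL at 8 h without either UT replicate or vit C replicate 1 or 2.

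For the receptors at 96 h the count was 0 with quantile normalization, normexp, the percentile over detected probes, floored signals, dim probes left out, the t-test and the fit per time point, and 3 with opposing probes kept. It was 1 at 48 h with array weights, and 1 at 8 and 48 h with unadjusted p. In UT cells over time it was 1 with normexp or the fit per time point and 0 with the t-test. Without 1 array it was 0 at 8, 24 and 48 h, 0 to 1 at 96 h and 1 to 3 over time.

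For the processing genes, array weights and unadjusted p gave 1 at 8 h and 2 at 48 h. The slide block, the replicate block and the t-test gave 0 at 24 and 48 h. At 96 h quantile normalization, normexp and the percentile over detected probes gave 3, and the t-test and the fit per time point gave 0, the latter also at 48 h. Over time normexp gave 3, the fit per time point 2 and the t-test 1. Without 1 array the counts were 0 at 8 h, 0 to 1 at 24 h, 0 to 2 at 48 h, 3 to 5 at 96 h and 4 to 7 over time.

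For prolactin signalling at 8 h, the slide block, the replicate block, the fit per time point and the t-test gave 0. At 24 h unadjusted p gave 2 and floored signals 1, and at 48 h leaving out dim probes gave 1. At 96 h quantile normalization, normexp, floored signals, dim probes left out, the fit per time point and the t-test gave 0. Over time the slide block, floored signals and the fit per time point gave 1 and the t-test 0. Without 1 array the counts were 0 at 8, 24 and 48 h, 0 to 1 at 96 h and 1 to 2 over time.

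For the other hormones, the slide block gave 0, 0 and 1 at 8, 24 and 48 h, and the replicate block 0, 0, 4 and 23 at the 4 times. Array weights gave 9, 15 and 22 at 8, 48 and 96 h, and normexp 1, 2, 4, 5 and, over time, 6. At 96 h quantile normalization gave 6, and floored signals and leaving out dim probes 7. Floored signals gave 7 over time. The fit per time point gave 1, 1, 0, 0 and, over time, 5, and the t-test 0 at all 4 times and 3 over time. Unadjusted p gave 13, 14, 18 and 22. Without 1 array the counts were 0 to 1, 1 to 4, 2 to 6 and 6 to 23 at the 4 times and 6 to 14 over time.

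Groups share replicate numbers, but deviations of arrays with the same number correlated between -0.34 and 0.13 and at no time in 3 pairs, so they were not treated as pairs. The replicate block gave 3.99 for PRL and -2.95 for PNOC at 96 h, and could not be fitted to UT cells over time. Since both correlations at 48 h were -0.14, the numbers were also crossed there, a choice made after seeing the data, which gave 4 of the 5 genes, 0 receptors, 0 processing, 0 signalling and 5 other hormone genes. Signal over background limits PRL before 48 h, BDNF at 8 and 96 h and PRLR throughout.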

Other observations

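Over the 19 arrays the 5 genes fell into 2 shapes by the Pearson r of their brightest probes, as a description over arrays that share times and slides. PNOC and GHRL went together (r = 0.91) and opposite to PRL (r = -0.93 and -0.90). BDNF and EDN1 went together (r = 0.79) and were little related to PRL (r = -0.20 and -0.07).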
